A study of Homo sapiens with 6 samples.

Results

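ELF3, EHF and GRHL3 are 3 transcription factor genes of epithelial cells, and their rows were taken by gene name from the RNA tables of 2 human cervical cancer cell lines. They were 3 of 10661 genes, with 4 of 15189 transcript rows in the ME-180 table and 6 of 16600 in the SiHa table. ME-180 is a squamous cervical carcinoma line, and its libraries were a knockdown of p63 with the construct labelled shp63 and a control labelled plko. SiHa, another cervical carcinoma line, gave a library with p63 overexpression and a library with the vector. All 4 RNA libraries came from cells of passages 13 to 15, and nothing in the labels says whether a line was a clone or a pool. Each group was 1 library, so no test of a condition was possible, every ratio compares 2 libraries, and the 95% intervals cover counting error only. A p63 chromatin immunoprecipitation and its input, also from ME-180, were not analysed here against these genes, since no annotation of their genome build was used.

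ELF3 and EHF belong to the epithelium-restricted branch of the ETS family, whose DNA-binding domain reads sites around a GGAA core. Both are known to activate genes of differentiating surface epithelia. GRHL3 belongs to the Grainyhead family and is known from mouse studies for epidermal barrier formation, wound repair and neural tube closure. p63, encoded by TP63, is the p53 family member that maintains the basal layer of stratified epithelia, and the comparisons ask whether the 3 genes follow its level.

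Promoter windows of the 3 genes are shown because ELF3, EHF and GRHL3 were all lower in the library labelled knockdown, in which ZEB1 and ZEB2, repressors that bind the E-box CACCTG, were higher (values below). Each window runs from 250 bases before to 50 after an annotated start (RefSeq, GRCh38.p14, plus strand), 300 bases in all, and capitals mark CACCTG and the TATA-type motif TATAAA, searched on both strands.
ELF3, chr1:202010337-202010636: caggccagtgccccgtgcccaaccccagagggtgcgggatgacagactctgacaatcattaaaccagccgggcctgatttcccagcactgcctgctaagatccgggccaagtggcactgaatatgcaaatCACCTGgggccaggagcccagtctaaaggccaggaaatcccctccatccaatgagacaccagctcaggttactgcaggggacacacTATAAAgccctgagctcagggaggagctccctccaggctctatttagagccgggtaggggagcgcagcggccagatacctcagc
GRHL3, chr1:24319107-24319406: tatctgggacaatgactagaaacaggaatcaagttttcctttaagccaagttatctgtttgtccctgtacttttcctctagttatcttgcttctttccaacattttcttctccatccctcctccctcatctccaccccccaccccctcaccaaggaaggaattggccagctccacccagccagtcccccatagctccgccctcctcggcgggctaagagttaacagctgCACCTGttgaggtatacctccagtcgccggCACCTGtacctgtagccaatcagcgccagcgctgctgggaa
EHF, chr11:34624007-34624306: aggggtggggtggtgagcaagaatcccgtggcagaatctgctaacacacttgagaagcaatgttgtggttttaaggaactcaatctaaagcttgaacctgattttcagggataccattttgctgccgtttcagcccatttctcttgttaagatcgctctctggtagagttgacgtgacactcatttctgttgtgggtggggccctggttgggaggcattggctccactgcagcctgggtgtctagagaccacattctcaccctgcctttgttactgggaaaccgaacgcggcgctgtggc
The ELF3 window held 1 CACCTG, starting at position -120 from the start site, and 1 TATAAA starting at -34. The GRHL3 window held CACCTG at -21 and again at 10, while the EHF window held neither motif. A further GRHL3 window, chr1:24322790-24323089, and a further EHF window, chr11:34632316-34632615, are not shown and held neither motif. Of 35116 promoter windows of this length, 20.6% held at least 1 CACCTG, 3.49% held 2 or more, and 11.5% held TATAAA. The ETS core GGAA matched 2 times in the ELF3 window, 7 times in the GRHL3 window and 2 times in the EHF window, against a median of 3 over all windows, of which 95.5% held it. The ETS core matched 2 times in the further GRHL3 window and 0 times in the further EHF window. The p53 family half-site was not among the letters of the windows shown. It matched once in the further GRHL3 window, and 6.63% of all windows held it. The Grainyhead consensus AACCGGTT was in 0.134% of all windows and in none of the 5 windows of the 3 genes. A match is a description of the letters, and binding at these windows was not measured here.

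The rows of the tables summed to 10046579 counts for the library labelled knockdown, 10804272 for the ME-180 control, 13690639 for the SiHa overexpression library and 14207637 for the SiHa vector library. These totals were used to scale counts to CPM, counts per 1000000 counts of the table, and are not full sequencing depths. The library labelled knockdown stood apart from its control: of 7587 genes with a row in both tables, 252 had at least 100 counts in one of them and at most 3 in the other. Set against the SiHa vector library, the library labelled knockdown had 104 such genes and the ME-180 control had 110, while the SiHa libraries had 1 between them. Among these 7587 genes, the count was higher for the pair labelled ME-180 than for either of its libraries against SiHa vector. Genes counted in SiHa but without an ME-180 row could not enter it. Rows found in both tables held 99.6% of the ME-180 control total but 69.2% of the SiHa vector total. The counts against SiHa vector may thus be too low, and which pair was further apart cannot be decided from them. Whether the library labelled knockdown came from ME-180 cells cannot be settled from these tables, so each ME-180 ratio below may hold a difference other than the knockdown.

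TP63 itself separated the libraries as labelled. In ME-180, transcript NM_001114980.1, which encodes the delta N alpha form, was counted 6 times under labelled knockdown against 5619 times in the control, 871-fold lower with a 95% interval from 400 to 2374. The SiHa counts of that transcript were 179 with overexpression and 7 with the vector, a ratio of 26.5 with an interval from 12.6 to 67.0.

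In ME-180, all 3 genes were lower in the library labelled knockdown, and for ELF3 and EHF no read was counted there. ELF3 (NM_001114309.1, chromosome 1) had 0 counts in the library labelled knockdown and 4952 in the control, that is 0 and 458 CPM. With the 0 replaced by a floor of 3 counts, its level was 1535-fold lower (lower 95% limit 1248, from the counts without the floor). EHF (chromosome 11) had 2 rows, and both were at 0 in the library labelled knockdown. NM_001206615.1 had 4298 counts in the control and NM_001206616.1 had 4191. Against the same floor this is 1332-fold lower for the first row (lower 95% limit 1083) and 1299-fold lower for the second (1056). The EHF rows share reads, so they are not independent measurements. A count of 0 in the library labelled knockdown allows a level of up to 0.367 CPM (upper 95% Poisson limit).

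GRHL3 was measured at a lower level and with less precision. Its only ME-180 row, NM_001195010.1 on chromosome 1, had 4 counts in the library labelled knockdown and 128 in the control, 0.398 and 11.8 CPM. The level was 29.8-fold lower (11.3 to 111). On the log2 scale of CPM plus 1, which shrinks low levels, the ratios of labelled knockdown over control were -8.84 for ELF3, -8.64 for EHF and -3.20 for GRHL3. All 3 thus passed the 2-fold size rule downwards, as did 20.6% of the 6783 genes that reached 1 CPM in an ME-180 library, while 28.2% passed it upwards. The median of those 6783 genes was 0.28, which scaling by trimmed means of M values reduced to 0.02. ELF3 had the 8th and EHF the 13th lowest ratio, with 7 and 12 genes below them, and 341 genes lay below GRHL3. In the authors' deposited table the adjusted p was 8.6e-52 for ELF3, 2.23e-50 and 4.03e-50 for the EHF rows and 4.18e-13 for GRHL3. With 1 library a group, such a p contains no spread between replicates.

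**Figure D1:**
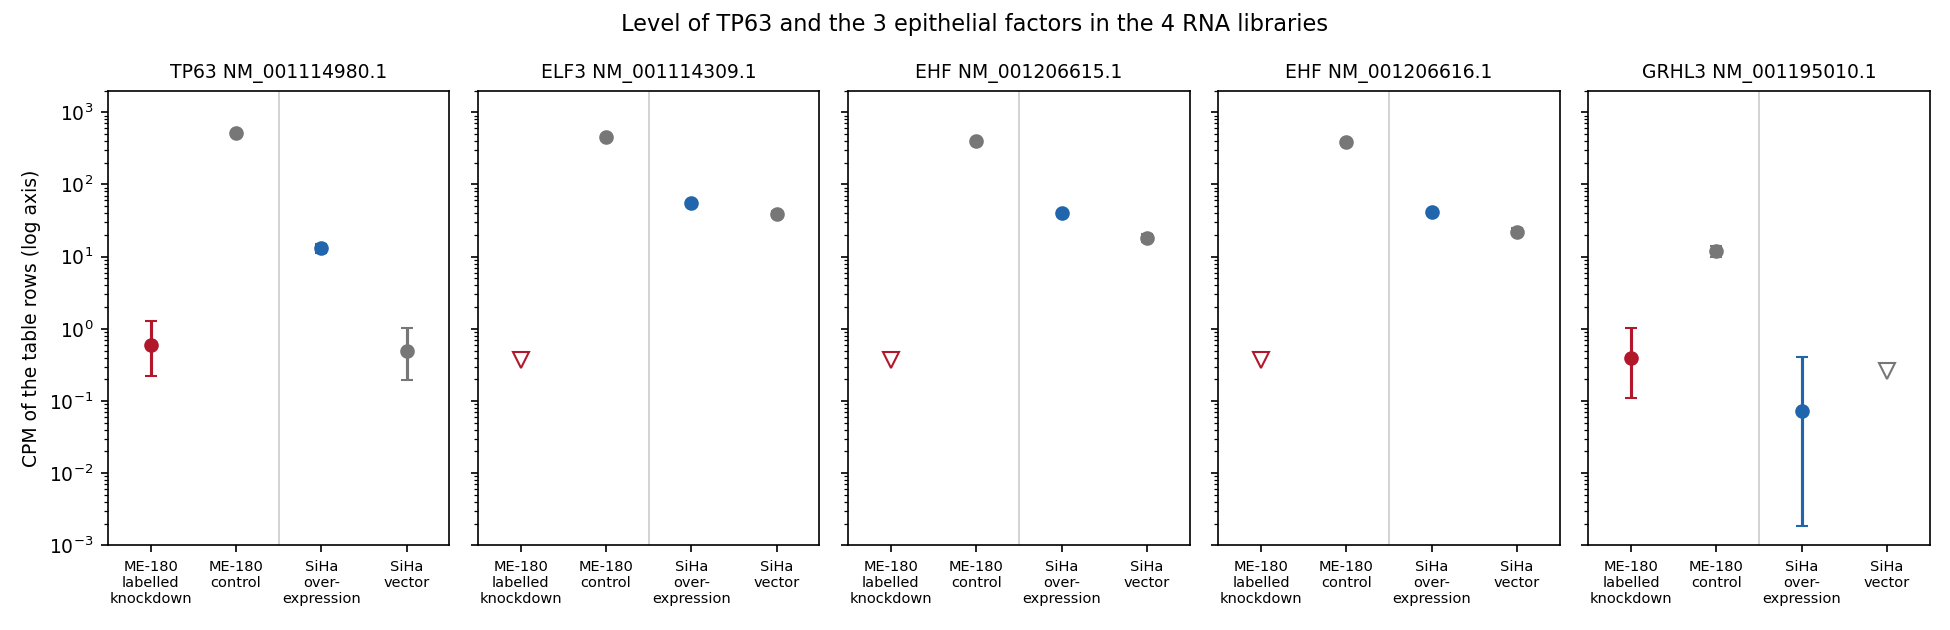
Level in CPM (log axis) of 1 TP63 row and of the ELF3, EHF and GRHL3 rows found in both tables, in the library labelled knockdown (red), the SiHa overexpression library (blue) and their controls (grey). Points are single libraries with exact Poisson 95% intervals, and open triangles mark the upper 95% limit of a count of 0. TP63 is at 0.597 CPM in the library labelled knockdown and 0.493 CPM in the SiHa vector library, while ELF3 is at 0 in the first and at 39.0 CPM in the second.

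In SiHa, ELF3 and EHF were higher with p63 overexpression by small ratios, and GRHL3 was at the limit of counting. ELF3 had 759 counts with overexpression and 554 with the vector, or 55.4 and 39.0 CPM, a ratio of 1.42 (1.27 to 1.59). EHF row NM_001206615.1 had 545 counts with overexpression and 257 with the vector, a ratio of 2.20 (1.89 to 2.56). Row NM_001206616.1 had 565 and 315, a ratio of 1.86 (1.62 to 2.14). None of these counting intervals reached 1, but how far 2 SiHa libraries of 1 group differ was not measured.

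The size rule of 2-fold on the log2 scale of CPM plus 1 was passed by EHF row NM_001206615.1 (1.10) and not by NM_001206616.1 (0.87), which represents the gene because it had the higher summed level, nor by ELF3 (0.50). Among the 6996 genes that reached 1 CPM in a SiHa library, 0.572% passed the rule upwards and 0.743% downwards, and 42.6% had a log2 ratio above 0. Ratios above that of EHF were found for 69 genes, and above that of ELF3 for 227 genes, 0.986% and 3.24% of the 6996. The authors' deposited table gave p = 0.00629 (adjusted 0.928) and p = 0.0287 (adjusted 1) for the EHF rows and p = 0.192 (adjusted 1) for ELF3, so no row passed an adjusted threshold there.

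GRHL3 could not be read as higher or lower in SiHa. Its rows NM_001195010.1, NM_021180.3 and NM_198173.2 had 1, 2 and 1 counts with overexpression and 0 each with the vector. Both libraries lay under the floor of 3 counts, so no fold is given. A count of 0 with the vector allows up to 0.260 CPM, against 11.8 CPM in the ME-180 control.

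The 2 EHF rows were in nearly equal number in the ME-180 control, with 1.03 counts of NM_001206615.1 for each count of NM_001206616.1. This ratio was 0.965 with overexpression and 0.816 with the vector in SiHa. The rows share reads, and whether the ratios differ beyond the spread between libraries was not tested.

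Across the 4 libraries, ELF3, EHF and TP63 were all highest in the ME-180 control and next highest in the SiHa overexpression library. The SiHa vector library and the library labelled knockdown had 7 and 6 counts of TP63 transcript NM_001114980.1, a ratio of 0.825 (0.237 to 2.97), so their order in TP63 was not resolved. ELF3 had 554 counts in the SiHa vector library and 0 under labelled knockdown. Its level in SiHa was 131-fold higher against the floor (lower 95% limit 106). For the EHF rows the corresponding ratios were 60.6-fold and 74.2-fold (lower 95% limits 48.9 and 60.0). GRHL3 NM_001195010.1 had 0 counts in the SiHa vector library and 4 in the library labelled knockdown.

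Between the controls, the ME-180 library had more of all 3 genes than the SiHa vector library. The ME-180 control had 11.8 times the ELF3 level of the SiHa vector library (10.8 to 12.9), and 22.0 and 17.5 times the level of the EHF rows. GRHL3 NM_001195010.1 was 56.1-fold higher against the floor (lower 95% limit 45.0). The tables were deposited separately, and rows found in both make up 99.6% of the ME-180 control total and 69.2% of the SiHa vector total. Scaled by those 13206 rows alone, ELF3 was 8.17 times (7.48 to 8.94) and the EHF rows 15.3 and 12.2 times higher in the ME-180 control. GRHL3 was 39.0-fold higher against the floor (lower 95% limit 31.3). The SiHa levels with overexpression also lay below those of ME-180: the ME-180 control had 8.27 times the ELF3 of the overexpression library (7.66 to 8.94), or 5.73 times on the shared rows, and 39.8 times TP63 transcript NM_001114980.1 (34.3 to 46.4), or 27.5 times on the shared rows. For the TP63 rows NM_001114979.1 and NM_001114982.1 that ratio was much smaller, 5.24 (4.18 to 6.63) and 5.52 (4.51 to 6.81).

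**Figure D2:**
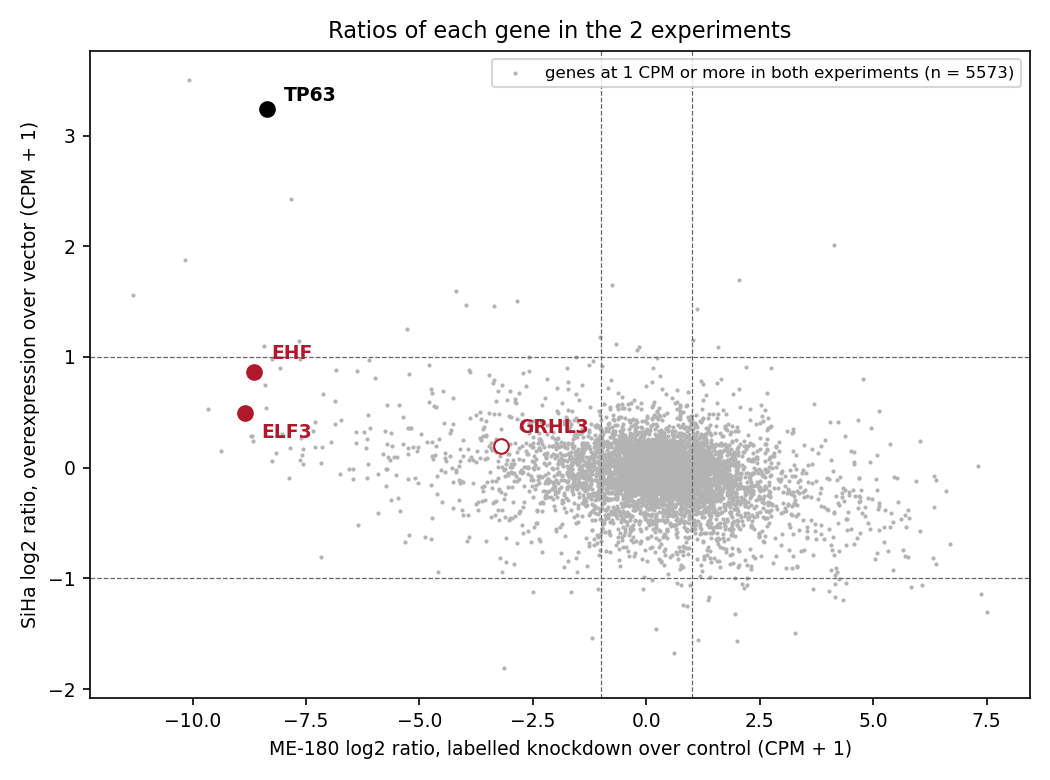
Log2 ratio of CPM + 1 in ME-180 (labelled knockdown over control, horizontal) against SiHa (overexpression over vector, vertical), with 5573 genes at 1 CPM or more in both experiments in grey and the 2-fold lines dashed. ELF3 (-8.84, 0.50) and EHF (-8.64, 0.87) lie far to the left and just above 0, and GRHL3 is an open circle because its SiHa counts are below 1 CPM.

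ELF3 and EHF were among a small set of well-expressed genes with no count in the library labelled knockdown. Of 1250 genes with at least 1000 counts in the ME-180 control, 16 had 0 counts there (1.28%). Besides ELF3 and EHF they included, named after their values were seen, the squamous microRNA host MIR205HG with 7291 control counts and the laminin subunit LAMB3 with 3571. In SiHa, 11 of the 16 had at least 1 CPM in a library. All 11 had a log2 ratio above 0, against 42.6% of all genes, with EHF highest (0.87). EHF and ELF3 were at 22.2 and 39.0 CPM in the SiHa vector library, and MIR205HG was at 0.633 CPM.

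Among the genes lower in ME-180, the SiHa ratios of ELF3 and EHF were in the upper part. The 2 experiments share no library, and no test of the shares below was made. Of 893 genes that passed the rule downwards in ME-180 and reached 1 CPM in SiHa, 53.4% had a SiHa log2 ratio above 0, against 40.4% of the 4680 genes that were not 2-fold lower. A SiHa ratio as high as that of ELF3 was found in 8.62% of the 893 and 1.65% of the 4680. The share was 3.36% and 0.299% for the ratio of EHF.

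The ETS family was mixed in ME-180, with ELF3 and EHF lowest. Of 28 ETS genes, 21 had a row in the ME-180 table and 13 reached 1 CPM, and of these 8 were at least 2-fold lower, against 20.6% of all genes, and 3 at least 2-fold higher, against 28.2% (median log2 ratio -1.48, and -1.52 with counts under 3 set to 3 and no pseudocount, against 0.28 for all 6783 genes). After ELF3 and EHF came ETV4, known as a target of growth factor signalling, with 3 counts in the library labelled knockdown and 163 in the control (-3.63), and ETS1 with 3 and 130 (-3.33). The 3 that were higher, a share close to that of all genes, were GABPA, an activator of mitochondrial genes (1125 counts in the library labelled knockdown, 455 in the control, log2 ratio 1.39), ELK1, a target of MAP kinases (1.32), and ETV1 (16 counts and 1). With trimmed-mean scaling the same numbers, 8 and 3, passed the rule, and ETV3 (0.07) and ETV5 (0.12), which did not pass it, turned to -0.20 and -0.02. The low ratios were thus not shared by the whole family.

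In SiHa no ETS gene passed the 2-fold rule. Of 13 members at 1 CPM, 8 lay above 0, against 42.6% of all 6996 genes. Their median was 0.04, against -0.05 for all genes, with EHF (0.87) and ELF3 (0.50) highest. The next were ETS1, with 533 counts with overexpression and 470 with the vector (0.23), and ETS2 with 1740 and 1596 (0.18).

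The Grainyhead and CP2 family gave few rows. In ME-180, GRHL3 was lower, while the ubiquitous members UBP1 (902 counts in the library labelled knockdown and 1130 in the control, log2 ratio -0.22) and TFCP2 (432 and 396, log2 ratio 0.22) did not pass the rule. In SiHa, UBP1 (-0.04) and TFCP2 (0.08) lay near 0, and GRHL2, the family member of simple epithelia, had 4 counts with overexpression and 0 with the vector. Trimmed-mean scaling turned TFCP2 in ME-180 below 0 and UBP1 in SiHa above 0. GRHL1 had no row in the tables used here, and GRHL2 none in the ME-180 table.

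**Figure D3:**
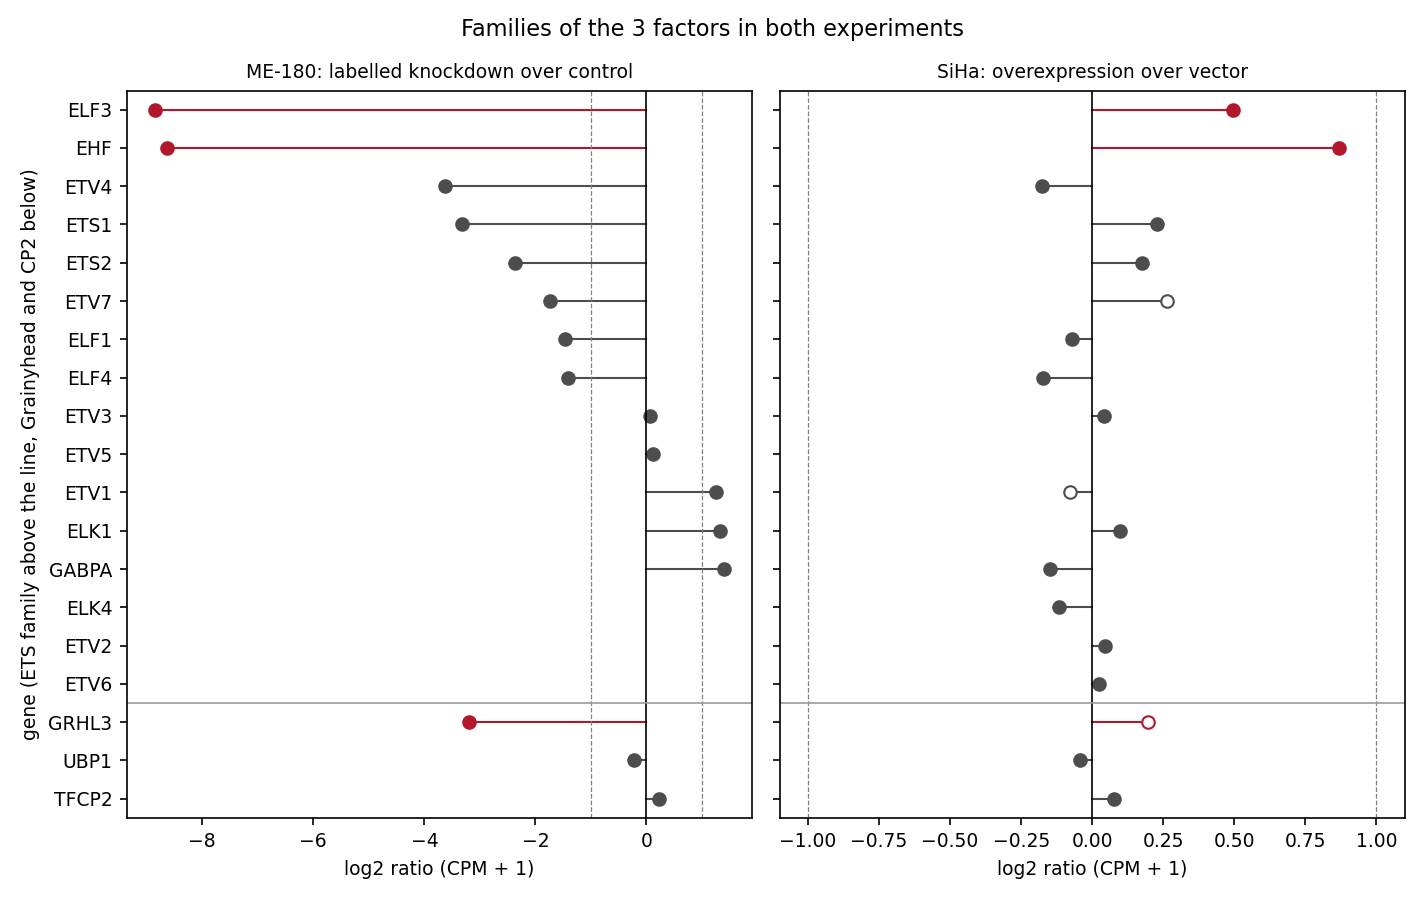
Log2 ratio of CPM + 1 for the ETS (upper) and Grainyhead and CP2 (lower) genes that reach 1 CPM in an experiment, plus GRHL3, in ME-180 (left panel) and SiHa (right panel), whose axes differ in scale. Red marks ELF3, EHF and GRHL3, open circles are below 1 CPM, a missing point means no row, and dashed lines mark 2-fold; ELF3 and EHF are the lowest ETS genes at the left and the highest at the right.

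Other epithelial transcription factors were mostly lower beside them in ME-180. Of 31 in the list, 11 had a row, 10 reached 1 CPM, 8 were lower, TP63 itself among them, and 1 higher, against 20.6% and 28.2% of all genes (median -2.38, and -2.58 with low counts set to 3). MAF, a factor of terminal keratinocyte differentiation, had 153 counts in the library labelled knockdown and 1573 in the control (-3.18), and PRDM1, a repressor active in terminal differentiation, had 1 and 92 (-3.11). GATA3, a factor of skin and breast epithelium, went the other way, with 215 counts in the library labelled knockdown and 39 in the control (2.28). In SiHa, 1 gene of 16 at 1 CPM was higher (median 0.07), against 0.572% of all genes. It was TP63, the overexpressed gene itself, so its call follows from the design, and no other gene of the list passed the rule. PRDM1 (-0.44), GATA3 (0.43) and BARX2 (-0.42) did not pass the rule.

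Genes known as Grainyhead targets were largely lower in ME-180. Of 19, 8 had a row and all 8 reached 1 CPM, of which 6 were lower and 1 higher, against 20.6% and 28.2% of all genes (median -4.57, and -6.05 with low counts set to 3). TGM1, the transglutaminase of the cornified envelope and a GRHL3 target in mouse skin, had 45 counts in the library labelled knockdown and 11723 in the control (-7.63). The protease inhibitor SPINT1 had 0 and 2034 counts, the claudin CLDN7 9 and 2367, and the splicing regulator ESRP1 0 and 902. TERT, the telomerase catalytic subunit, was the 1 gene higher, with 261 and 5 counts (4.21). In SiHa 0 of 9 passed the rule and 6 lay above 0 (median 0.19), against 42.6% of all genes above 0. TGM1 led with 116 counts with overexpression and 54 with the vector (0.98), followed by CLDN7 (0.39) and EPCAM (0.37). With trimmed-mean or median-ratio scaling 1 of the 9 was past 2-fold higher.

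Of the genes known as ELF3 or EHF targets, more were lower than higher in both experiments. In ME-180, 13 of 18 had a row, 12 reached 1 CPM, 10 were lower and 2 higher, against 20.6% and 28.2% of all genes (median -1.59, and -2.75 with low counts set to 3). CLDN7 (-6.86) and the simple epithelium keratin KRT8, with 220 counts in the library labelled knockdown and 20597 in the control (-6.38), were lowest, followed by the collagenase MMP13 with 0 and 266 counts. The 2 that were higher were NOS2, inducible nitric oxide synthase, with 114 and 0 counts, and TGFBR2, a TGF-beta receptor, with 69 and 0.
In SiHa, 3 of 9 were lower and 0 higher, against 0.743% and 0.572% of all genes (median -0.11). ELF3 and EHF themselves lay above 0, as did 4 of the 9, against 42.6% of all genes. The list does not give whether a factor raises or lowers each target. The 3 lower genes were the cytokine IL6 with 33 counts with overexpression and 415 with the vector (-3.15), the prostaglandin synthase PTGS2 with 73 and 302 (-1.81), and the chemokine CCL20 with 0 and 27. KRT4, a keratin of mucosal squamous epithelium, had 275 and 139 counts (0.97) and KRT8 had 31141 and 17627 (0.87). With trimmed-mean or median-ratio scaling 1 of the 9 was past 2-fold higher.

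Among repressors of epithelial genes, ZEB1 and ZEB2 were higher in the library labelled knockdown. Of 9, 5 had a row and 4 reached 1 CPM, of which 2 were higher, against 28.2% of all genes, and 0 lower (median 2.33, and 3.29 with low counts set to 3). ZEB1 had 179 counts in the library labelled knockdown and 1 in the control, a ratio of 193 (34.1 to 7645). ZEB2 had 223 and 1 counts, a ratio of 239.8 (42.6 to 9514). With the control count of 1 replaced by the floor of 3 counts, the ratios were 64.2 for ZEB1 and 79.9 for ZEB2. TWIST1 (0.55) and FOXC2 (-0.33) did not pass the rule.
In SiHa, ZEB2 was lower, with 49 counts with overexpression and 120 with the vector (-1.04), and ZEB1 had 61 and 65 (-0.03). This was 1 of 4 repressors at 1 CPM (median -0.13), against 0.743% of all genes that were lower.

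**Figure D4:**
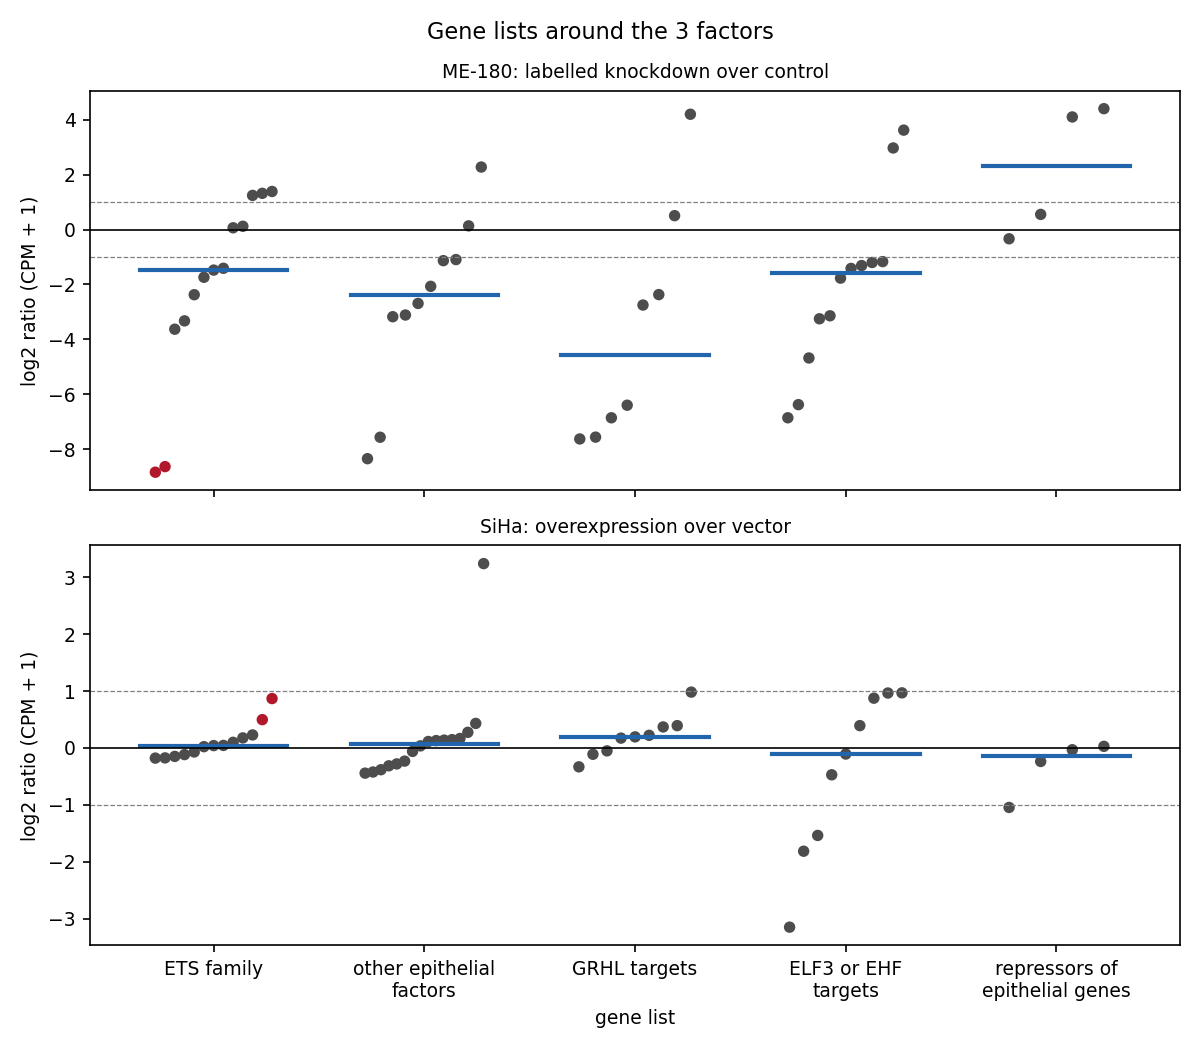
Log2 ratio of CPM + 1 for the genes at 1 CPM or more of 5 lists, in ME-180 (upper panel) and SiHa (lower panel). Each point is a gene, red points are ELF3 and EHF, blue bars are list medians and dashed lines mark 2-fold; in ME-180 the medians run from -4.57 for GRHL targets to 2.33 for the repressors, and in SiHa they lie between -0.13 and 0.19.

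Basal and simple epithelium markers were mostly lower beside the 3 genes in ME-180. Fetal and mesenchymal markers at 1 CPM went both ways there, with more higher than lower. Over all genes there, 20.6% were lower and 28.2% higher. All 8 measured of 14 basal squamous markers were lower, with a summed level of 90.4 CPM in the library labelled knockdown and 76172 CPM in the control, and LAMB3 at 0. Of 5 measured simple epithelium markers 4 were lower, with 133 and 2937 CPM. Of the fetal and germ cell markers, 2 of 3 at 1 CPM were higher and 1 lower, with 598 and 62.5 CPM. The RNA-binding protein LIN28B had 1981 and 2 counts, IGF2BP1 had 4019 and 627, and POU5F1, the 1 lower, had 4 and 37. Fibroblast and mesenchymal markers were higher in 4 of 6 and lower in 1, with 186 and 137 CPM. FBN1 was at 97.9 and 4.91 CPM (984 and 53 counts), and COL1A1, the 1 lower, at 52.2 and 127 CPM. Neuronal markers were higher in 1 of 3, KIF1A, with 126 and 35.2 CPM. Immune markers summed to 5.87 and 52.1 CPM and endothelial markers to 1.89 and 14.4 CPM. The ME-180 label thus had its squamous markers in the control and very little of them in the library labelled knockdown. In bulk RNA, fewer cells that express a gene and less RNA per cell cannot be told apart, and the part of these markers in the result was not tested.

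In SiHa, the same basal markers were higher beside ELF3 and EHF in 6 of 10 at 1 CPM and lower in 0, against 0.572% and 0.743% of all genes, with summed levels of 9248 CPM with overexpression and 4357 CPM with the vector. KRT17 made up most of these sums, with 120878 and 58740 counts. Of 7 simple epithelium markers 1 was higher, KRT19, and 6 lay above 0, against 42.6% of all genes, with 4623 and 2554 CPM. Fibroblast markers were lower in 1 of 7, FN1, and summed to 34.8 and 52.9 CPM, fetal and germ cell markers in 1 of 3, LIN28B, with 74.2 and 108 CPM. Neuronal markers (441 and 325 CPM), immune markers (139 and 126 CPM) and endothelial markers (10.9 and 12.2 CPM) gave 1 gene past the rule between them, the immunoglobulin-associated CD79A, with 21 counts and 1. The part of these markers in the SiHa ratios was not tested.

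The genes most like each factor over the 4 libraries were found by the Euclidean distance of log2(CPM + 1) among 7587 genes with a shared row, each gene taken by its shared row with the highest summed CPM. This measure uses levels that are not corrected for transcript length. For ELF3 they were TGFBI, an extracellular matrix protein (distance 0.62), LAMB3 (1.02), the hyaluronan receptor CD44 (1.11), EHF (1.18) and IGFBP3, which binds insulin-like growth factors (1.20). For EHF they were the annexins ANXA8L1 (0.54) and ANXA8 (0.79), which are near-identical copies and can share reads, then CD44 (0.92), ELF3 (1.18) and TGFBI (1.31). ELF3 and EHF were thus each the 4th most alike to the other. GRHL3 was nearest to PLB1 (0.21), ANKRD2 (0.28), KLK7, a protease of epidermal shedding (0.29), MROH7 (0.31) and SERPINF2 (0.33), all with 108 to 132 counts in the ME-180 control and 5 or fewer in each of the other libraries.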

How the data were processed

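RNA was measured in 4 libraries, 1 per group, grouped by the titles in the labels. The authors deposited whole-number counts per RefSeq transcript, log2 fold changes and p-values with adjusted p-values, per the file headers. The submitters' processing notes name TopHat, Cufflinks, DESeq2 and build hg19 without roles or versions, with counter and strand setting not given in the sources used here. Rows with 0 counts in both libraries are absent. Genes well counted in SiHa can also lack an ME-180 row. KLF5 and PITX1, for example, lacked one and had 4544 and 8963 counts in the SiHa vector library. The rule that left rows out is not given in the sources used here, so a missing row was not read as absent expression. A read can enter several rows of 1 gene.

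CPM values are counts scaled to the summed table rows. Each gene was represented by its row with the highest summed CPM, and log2 ratios used a pseudocount of 1 CPM. A gene was called at 2-fold with at least 1 CPM in a library. Intervals are exact at 95% (Poisson for counts, conditional binomial for ratios). Spreadsheet dates in place of names were restored from transcript identifiers (32 and 31 rows). Poisson counts were simulated for 8798 ME-180 and 9490 SiHa genes. Among those at 5 CPM or more, 100 were raised and 100 lowered 4-fold. All 100 were called each way in both, with 0 unchanged genes called. The simulation held no spread between libraries, so it does not show how many calls in these data are false. Alternatives covered pseudocount, scaling (edgeR 4.0.16 in R 4.3.3), floor and threshold. Python 3.11.15 and SciPy 1.17.1 were used.

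The 3 genes, the lists and markers were chosen with earlier results of these data known. Named genes were the 3 factors, TP63, up to 4 genes per list and up to 3 per marker list with the largest ratio among genes at 1 CPM, and the 5 nearest genes, except that some named by this rule are not reported here. The peak intervals were not used, because the annotation at hand was of another build (GRCh38.p14).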

Additional observations from a re-analysis of the deposited data

How the results depend on the processing

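ELF3, EHF and GRHL3 stayed at least 2-fold lower in ME-180 under each of the 6, 7 and 6 alternatives run, and ELF3 and EHF above 0 in SiHa under each of the 6 and 7 run there, where EHF ranged from 0.77 to 0.99 and ELF3 from 0.46 to 0.55. These SiHa values of EHF are of row NM_001206616.1 and of the sum of its rows. Row NM_001206615.1 was past 2-fold there, at 1.10 in the main setting and 1.18 in the authors' deposited table. The size of the ME-180 ratios depends on how a count of 0 is treated. ELF3, EHF and GRHL3 were at -12.16, -11.96 and -4.58 with a pseudocount of 0.1 CPM, at -6.53, -6.33 and -1.64 with 5 CPM, at -15.39, -15.18 and -5.17 in the authors' deposited table, and at -10.58, -10.38 and -4.90 with counts of 0 set to 3 and no pseudocount. By trimmed means they were at -8.98, -8.78 and -3.37, and by median ratios ELF3 was at -8.98 and EHF at -8.78. The sum of the EHF rows gave -9.62. GRHL3 in SiHa, on 2 counts against 0, was at 1.30 with 0.1 CPM and 4.13 in the authors' deposited table, so neither its size nor its sign has a meaning.

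The 1914 genes higher and 1400 lower in ME-180 became 1272 and 918 with 5 CPM and 598 and 671 at 4-fold. The share of higher genes among those called was 57.8%, and 47.6% with trimmed means, 47.8% with median ratios and 47.1% at 4-fold. The 40 higher and 52 lower in SiHa became 113 and 227 with 0.1 CPM, 14 and 6 with 5 CPM, 4 and 2 at 4-fold, and 49 and 49 with trimmed means or median ratios, so the share of higher genes was 43.5%, 33.2%, 70.0% and 66.7% in that order, with equal numbers each way under both scalings. Removing the floor moved no count, since with a pseudocount of 1 CPM no lower gene can reach 2-fold. With trimmed means or median ratios 1 fibroblast marker also passed 2-fold upwards in SiHa and 1 neuronal marker downwards in ME-180, 2 rather than 1 of the 4 repressors lay above 0 in SiHa, and 1 rather than 2 of the 10 other epithelial factors in ME-180.

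Scaling by rows found in both tables, chosen after seeing the data, gave the ME-180 control over the SiHa vector ratios 8.17 for ELF3, 15.3 and 12.2 for the EHF rows and 39.0 for GRHL3, against 11.8, 22.0, 17.5 and 56.1 with the table totals. By the distance over the 2 log2 ratios alone, 2, 2 and 1 of the 5 nearest genes were shared for ELF3, EHF and GRHL3. Distances of peaks to the genes were not run, for want of an annotation of their build. No paired analysis was possible because each group holds 1 library. Depth limits GRHL3 in SiHa and all ratios against a count of 0.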
